A study of Rattus norvegicus with 6 samples.

Results

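Rat adipose-derived mesenchymal stem cells make signalling proteins that act on immune cells, on blood-forming cells and on other stromal cells. The genes described here are 9 of the 21857 rows of the deposited count table. They comprise the cytokine genes Tslp, Il33, Il6, Lif, Il11, Clcf1 and Csf1 and the receptor chain genes Il6st and Osmr. They were taken by gene symbol, and all 9 were found and passed the filter on low counts, which left 12298 genes tested. The set was chosen by name with the BCAA against vehicle differences of these libraries already known, and Tslp was known to be among the called genes. The differences of these 9 genes are therefore a description and no independent evidence.

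The libraries came from Sprague Dawley adipose-derived mesenchymal stem cells, kept in a high-glucose medium made without BCAA, the branched chain amino acids, and with 10% fetal bovine serum and antibiotics. In the BCAA group (3 libraries) the cells received 3.432 mM BCAA for 12 h, and in the vehicle group (3 libraries) they received vehicle for 12 h. Both groups were in that medium with 100 µM of the oxidant hydrogen peroxide, so no group shows the cells without peroxide, and the comparison is with cells to which no BCAA were added. The make-up of the BCAA mix is not given in the sources used here. Whether replicates came from separate cultures or animals is not in the labels. The p-values therefore rest on spread among the libraries at hand, and that spread may be technical.

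As background, the interleukin 6 family includes IL-6, LIF, IL-11 and CLCF1, and these ligands share the signal-transducing receptor chain gp130, the product of Il6st. Each ligand first binds its own receptor chain, and the assembled complex activates JAK kinases and the transcription factor STAT3, which induces the feedback inhibitor Socs3. OSMR is a receptor chain that pairs with gp130. TSLP and IL-33 are alarm cytokines of epithelial and stromal cells that act mainly on type 2 immune cells, and CSF1 is the growth factor of macrophages.

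Of the 9 genes, Tslp fell in cells given BCAA, to a level 1.63-fold lower than with vehicle. The other 8 did not pass the threshold, with log2 fold changes (BCAA over vehicle) between -0.18 and 0.13 and adjusted p-values between 0.45 and 0.99 (edgeR quasi-likelihood test, Benjamini-Hochberg over 12298 genes). The count was thus 1 of 9 called, against 0.228% of all genes tested (28 of 12298), and nothing is read from this because the set was chosen with the calls known. The median log2 fold change over the 9 genes was -0.03, and over all genes tested it was 0.00353. At an unadjusted p under 0.05 there was also 1 of 9, against 11.8% of all genes. The BCAA and vehicle values did not overlap for 2 of 9, Tslp and Lif, against 18.1% of all genes.

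One library stood apart. Vehicle replicate 1 lay at 26.8 on the first principal component of log2 CPM (CPM being counts divided by the TMM-scaled library size), which held 29.1% of the variance, while the other 5 libraries lay between -15.2 and 0.54. It was also the extreme library for 7 of the 9 genes, with the highest level of Tslp, Il33, Il6 and Osmr and the lowest of Il11, Il6st and Csf1. For each of the 9 genes the log2 fold change is given with and without it. Library totals ran from 12725344 to 15739731 counts, and the 9 genes took between 0.806% and 0.846% of each library's counts. The labelled cell type was checked against its markers. Each of the 9 stromal markers found had counts, among them Pdgfra, Thy1, Nt5e and Col1a1, and their summed level was 14246 to 14891 CPM with BCAA and 13868 to 15938 CPM with vehicle. The epithelial markers Epcam and Cdh1 had at most 2 counts in any library, and the 7 epithelial markers at most 9 each. Of the 6 endothelial markers found, Cdh5, Kdr, Vwf and Emcn had at most 7 counts in any library, while Tek had 40 to 79 and Tie1 48 to 80. The T and B cell markers Cd3e and Ms4a1 and the mast cell markers Cpa3, Tpsb2 and Ms4a2 had none. Markers of macrophages were present, among them Ptprc, Cd68, Adgre1, Cd14 and Lyz2. The summed level of the 9 leukocyte markers found was 760 to 818 CPM with BCAA and 824 to 989 CPM with vehicle, most of it Lyz2, a lysozyme gene, and without Lyz2 the sums were 167 to 175 CPM with BCAA and 173 to 178 CPM with vehicle, which overlap. The sums for smooth muscle cells and pericytes did not overlap and are given below. Those for adipocytes overlapped, at 374 to 398 CPM with BCAA and 348 to 444 CPM with vehicle. Nearly all of this was Lpl, while Adipoq, Plin1, Lep and Cidec had at most 8 counts in any library and Cfd at most 12. Sums also overlapped for endothelial cells, at 7.86 to 9.79 CPM with BCAA and 7.95 to 8.95 CPM with vehicle. For mast cells, eosinophils and basophils they were 0.887 to 1.28 and 0.470 to 1.396 CPM in BCAA and vehicle. For epithelial cells they were 0.824 to 1.17 and 0.286 to 1.41 CPM in BCAA and vehicle, with overlap in both lists. The part of these markers' cells in the cytokine levels was not tested. In bulk RNA, fewer cells of a type and less transcript per cell cannot be told apart.

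Tslp, thymic stromal lymphopoietin, is the alarm cytokine of the set that acts on dendritic cells and innate lymphoid cells. It had 41.6, 39.9 and 40.4 CPM in BCAA replicates 1 to 3, against 79.5, 63.4 and 55.6 CPM in vehicle replicates 1 to 3. Every BCAA library was below every vehicle library, and the BCAA libraries lay close together while vehicle replicate 1 was the highest. The means were 40.6 ± 0.920 CPM in BCAA libraries and 66.2 ± 12.2 CPM in vehicle libraries (SD, n = 3 each). The counts behind them were 617, 629 and 516 with BCAA and 1110, 999 and 710 with vehicle, so counting error alone is about 3.62% of the level. The coefficient of variation between replicates was 2.27% with BCAA and 18.4% with vehicle. Their log2 fold change came to -0.70 (SE 0.11, 95% interval -0.94 to -0.47), which is 1.38-fold to 1.92-fold lower, with an adjusted p of 0.016 in the edgeR fit over all genes. Ranked by p, it was gene 15 of 12298.

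The call for Tslp depended on the libraries used, and its direction did not. Without vehicle replicate 1 the log2 fold change was -0.55 and edgeR's adjusted p 0.00028. Without BCAA replicate 1, 2 or 3 the adjusted p was 0.12, 0.12 and 0.11, and without vehicle replicate 2 it was 0.051, so that the call was lost in each of these fits, with log2 fold changes between -0.74 and -0.69. Without vehicle replicate 3 it was 0.0041. Smooth muscle and pericyte markers also differed between the groups. The summed level of the 7 smooth muscle and pericyte markers, most of it Tagln, was 610 to 636 CPM with BCAA and 887 to 953 CPM with vehicle. In vehicle replicates 1 to 3 the sum was 942, 953 and 887 CPM. The leukocyte markers, mostly Lyz2, summed to 989, 858 and 824 CPM in the same libraries, and Tslp had 79.5, 63.4 and 55.6 CPM. All 6 smooth muscle and pericyte markers that were tested had negative log2 fold changes. Acta2 and Tagln were called lower, 2 of 6, against 0.228% of all genes. The groups overlapped for Cspg4, and Rgs5 had at most 2 counts in any library and was not tested. Of the 6 leukocyte markers tested, 3 had positive and 3 negative log2 fold changes and none was called. Lyz2 (log2 fold change -0.20, edgeR adjusted p = 0.35) and Cd14 (-0.12, edgeR adjusted p = 0.52) were lower in every BCAA library than in every vehicle library. The groups thus did not overlap for 2 of 6, against 18.1% of all genes. The part of smooth muscle cells or of leukocytes in the Tslp difference was not tested.

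**Figure D1:**
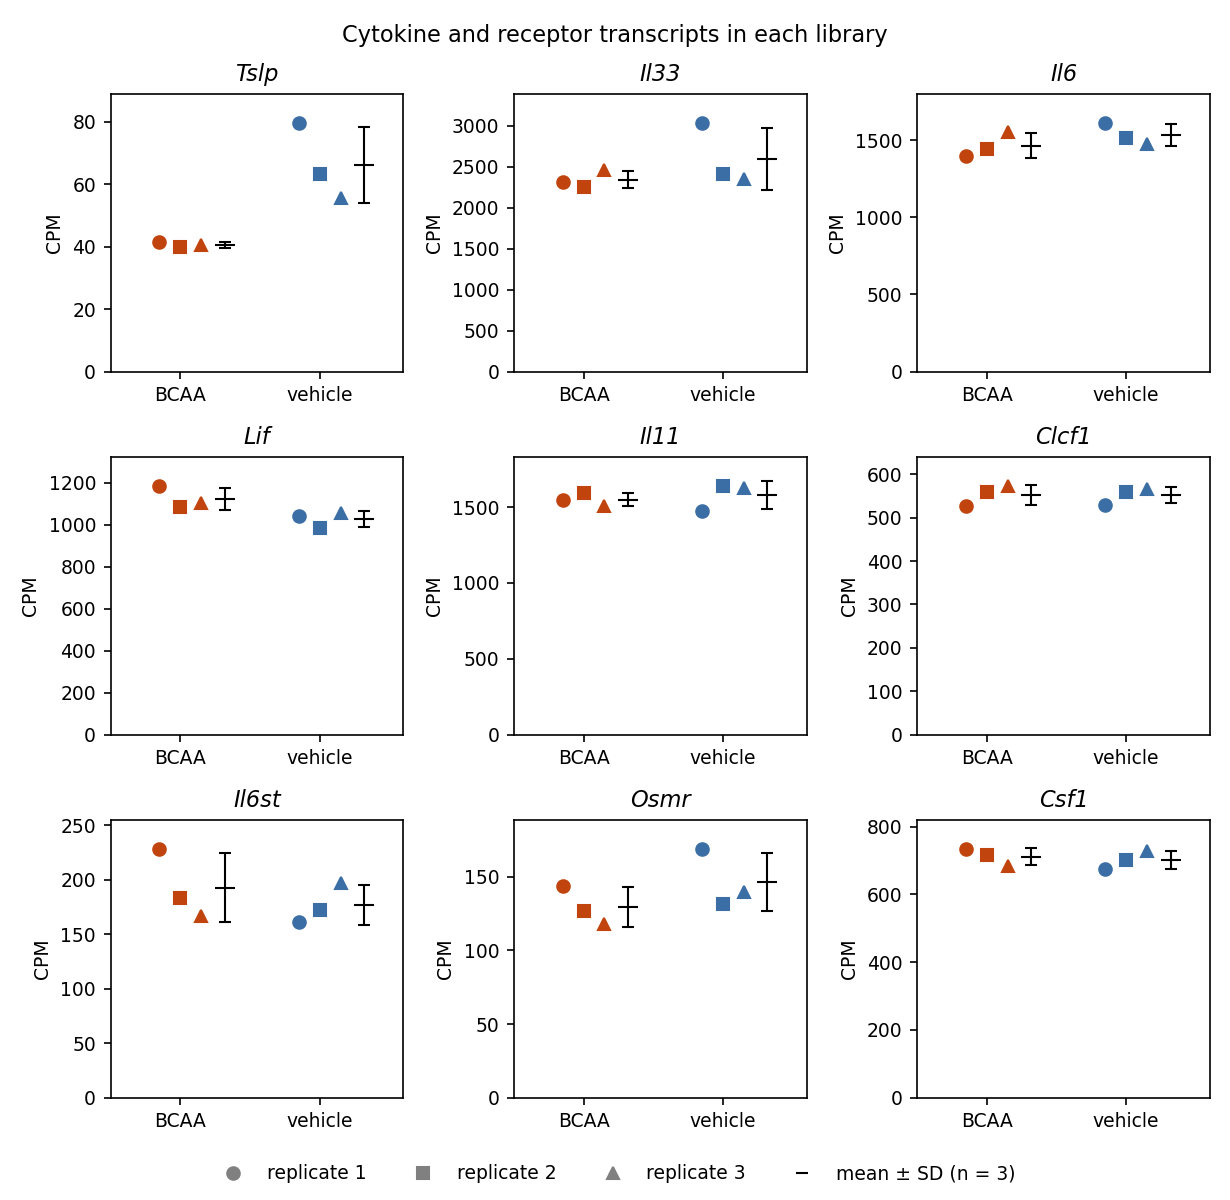
Level of each of the 9 transcripts in CPM (vertical axes, starting at 0) in the 3 BCAA and 3 vehicle libraries, with a marker shape for each replicate and black bars for the mean ± SD. Tslp lies at 39.9 to 41.6 CPM in the BCAA libraries and at 55.6 to 79.5 CPM in the vehicle libraries, Lif is also separated by group (1083 to 1182 CPM with BCAA and 985 to 1056 CPM with vehicle), and the groups overlap for the other genes.

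RefSeq start sites on the GRCr8 rat assembly gave the DNA just before the start of 6 of the 9 genes, in 8 windows of 250 bases, since Tslp and Il33 have more than 1 start. Lif, Clcf1 and Csf1 are the others. The counts themselves were made on rn6, per the submitters' processing notes, and the coordinates here belong to GRCr8 only. The upstream windows of Tslp, at chr18:24723740-24723989 on the plus strand, and of Il6, at chr4:5894576-5894825 on the minus strand, are shown because both genes are known targets of NF-kB in human cells and both windows hold a kappa-B motif, while Tslp was called lower and Il6 did not pass. Both run 5′ to 3′ on the gene's strand and end at the base before the start. Capitals mark motif matches, which are the kappa-B match in Tslp, and a C/EBP match followed by a kappa-B match in Il6.
Tslp: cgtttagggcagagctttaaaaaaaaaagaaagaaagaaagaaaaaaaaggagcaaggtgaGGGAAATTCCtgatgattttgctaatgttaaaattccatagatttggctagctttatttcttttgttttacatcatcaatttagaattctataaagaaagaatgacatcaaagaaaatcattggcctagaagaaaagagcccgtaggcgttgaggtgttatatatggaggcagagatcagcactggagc
Il6: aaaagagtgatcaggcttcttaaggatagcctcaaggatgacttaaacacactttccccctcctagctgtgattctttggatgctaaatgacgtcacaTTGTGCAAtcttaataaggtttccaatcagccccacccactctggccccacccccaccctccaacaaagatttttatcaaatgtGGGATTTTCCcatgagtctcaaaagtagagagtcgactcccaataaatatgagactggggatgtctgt
The kappa-B match began 189 bases before the start in Tslp and 68 bases before it in Il6, on the gene's strand in both. On either strand, a kappa-B motif was present in 6.3% of 33469 RefSeq windows of this length. The C/EBP motif TTNNGNAA, at 152 bases before the start of Il6, was present in 37.2%. Neither window held the AP-1 motif TGANTCA (6.3% of windows), the STAT motif TTCNNNGAA (7.7%) or the TEAD motif GGAATG (12.1%), and the window of the second Tslp start held none of these motifs or of the 2 found in Il6. A match is a run of letters and does not show that a factor bound there in these cells.

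Il33, the nuclear alarm cytokine that is released when cells are damaged, had 2313, 2249.8 and 2454 CPM with BCAA, against 3029, 2407 and 2349 CPM with vehicle. The groups overlapped, and vehicle replicate 1 alone lay far above the other libraries. The means were 2339 ± 105 CPM in BCAA libraries and 2595 ± 377 CPM in vehicle libraries (SD, n = 3 each), for a log2 fold change of -0.15 (SE 0.09, 95% interval -0.34 to 0.04; edgeR adjusted p = 0.53). Without vehicle replicate 1 it was -0.02.

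Tslp and Il33 were both highest in vehicle replicate 1, and their ratio within each library, a description added after the values were seen, varied less between vehicle libraries than Tslp did, and more between BCAA libraries. Tslp had 18.0, 17.7 and 16.5 reads for every 1000 Il33 reads in BCAA replicates 1 to 3, against 26.2, 26.3 and 23.7 in vehicle replicates 1 to 3. The ratio was lower in every BCAA library than in every vehicle library. Its coefficient of variation was 4.73% with BCAA and 5.93% with vehicle, where that of Tslp itself in CPM was 2.27% and 18.4% in BCAA and vehicle.

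**Figure D2:**
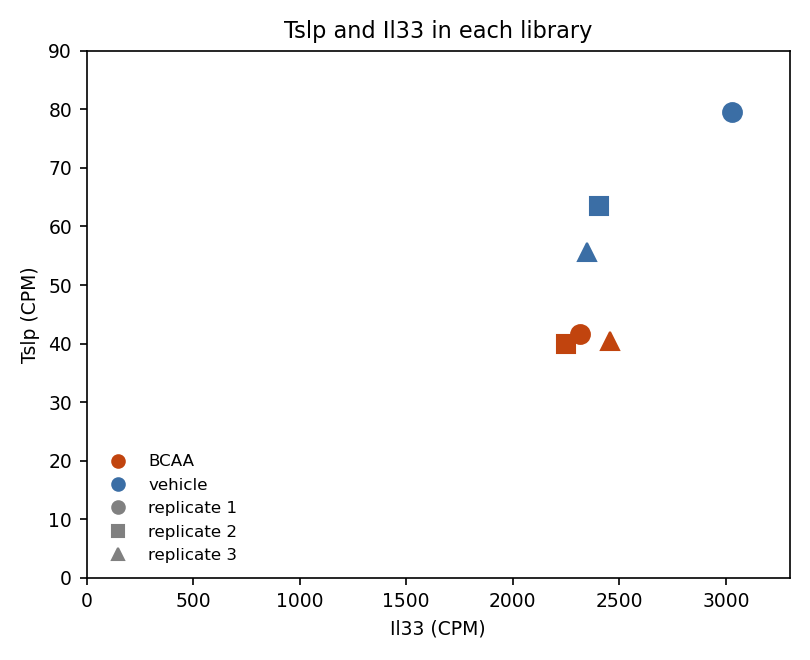
Level of Tslp (vertical axis, CPM) against that of Il33 (horizontal axis, CPM) in each of the 6 libraries, both axes starting at 0, with 1 point for each library. The 3 BCAA points lie at about the same Tslp level, between 39.9 and 41.6 CPM, while the 3 vehicle points lie above them and vehicle replicate 1 is highest on both axes, at 79.5 CPM for Tslp and 3029 CPM for Il33.

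Among the ligands of the interleukin 6 family, none passed. Il6, an inducer of the acute phase response and of B and T cell responses, had 1399.6, 1442 and 1552 CPM with BCAA, against 1608, 1516 and 1473 CPM with vehicle. These ranges overlapped, and the means of 1464 ± 78.7 CPM in BCAA libraries and 1532 ± 69.3 CPM in vehicle libraries (SD, n = 3 each) differed by less than the sum of their SDs. The log2 fold change was -0.07 (SE 0.06), and its 95% interval of -0.20 to 0.07 lay well short of the -0.70 of Tslp. Without vehicle replicate 1 the log2 fold change was -0.03.

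Lif, leukaemia inhibitory factor, which acts on stem cells and stromal cells through its own receptor and gp130, had 1182, 1083 and 1104 CPM with BCAA, against 1041, 985 and 1056 CPM with vehicle. All BCAA libraries lay above all vehicle libraries, by a small margin. The means were 1123 ± 52.4 CPM in BCAA libraries and 1027 ± 37.6 CPM in vehicle libraries (SD, n = 3 each), for a log2 fold change of 0.13 (SE 0.06, 95% interval -0.01 to 0.26; edgeR adjusted p = 0.45). Under the 11 alternative fits the log2 fold change lay between 0.09 and 0.16, with no call, and without vehicle replicate 1 it was 0.14.

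Il11, a cytokine of stromal cells that signals through gp130 and is induced in fibrotic tissue, had 1544, 1593 and 1506 CPM with BCAA, against 1476, 1637 and 1625 CPM with vehicle. The BCAA libraries all lay within the range of the vehicle libraries. The means were 1548 ± 43.7 CPM in BCAA libraries and 1579 ± 89.98 CPM in vehicle libraries (SD, n = 3 each), for a log2 fold change of -0.03 (SE 0.06, 95% interval -0.17 to 0.11). Without vehicle replicate 1 it was -0.07.

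Clcf1, the cardiotrophin-like ligand that acts through the ciliary neurotrophic factor receptor, had 527, 559 and 572 CPM with BCAA, against 530.4, 559 and 566 CPM with vehicle. The groups covered nearly the same range. The means were 553 ± 23.3 CPM in BCAA libraries and 552 ± 18.8 CPM in vehicle libraries (SD, n = 3 each), for a log2 fold change of 0.0034 (SE 0.06, 95% interval -0.13 to 0.14). Its sign changed when BCAA replicate 2 or 3 or vehicle replicate 1 was left out, and without the last of these it was -0.021.

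The receptor chains were the members with the widest spread in the BCAA group. Il6st, which encodes gp130, had 228, 184 and 167 CPM with BCAA, against 161, 172 and 197 CPM with vehicle. BCAA replicate 1 was the highest, and the other BCAA libraries lay among the vehicle libraries. The means were 193 ± 31.5 CPM in BCAA libraries and 177 ± 18.1 CPM in vehicle libraries (SD, n = 3 each), and the log2 fold change of 0.13 (SE 0.11, edgeR adjusted p = 0.68) became -0.01 without BCAA replicate 1 and 0.07 without vehicle replicate 1. Osmr, the oncostatin M receptor chain, had 144, 127 and 118 CPM with BCAA, against 169, 131 and 139.9 CPM with vehicle. The groups overlapped, and vehicle replicate 1 was again the highest. The means were 129 ± 13.4 CPM in BCAA libraries and 147 ± 19.6 CPM in vehicle libraries (SD, n = 3 each), and the log2 fold change of -0.18 (SE 0.10, edgeR adjusted p = 0.49) was -0.06 without vehicle replicate 1. The coefficient of variation with BCAA was 16.4% for Il6st and 10.4% for Osmr, above the 2.27% to 5.37% of the other members, and with vehicle it was 10.2% and 13.4%. Counting error was at most 3.62% for any of the 9 genes, well below the spread of the receptor chains.

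Csf1, the macrophage colony-stimulating factor, had 733, 717 and 685 CPM with BCAA, against 676, 703 and 729 CPM with vehicle. The groups covered nearly the same range. The means were 712 ± 24.4 CPM in BCAA libraries and 703 ± 26.1 CPM in vehicle libraries (SD, n = 3 each), for a log2 fold change of 0.02 (SE 0.06, 95% interval -0.11 to 0.15). Its sign changed without BCAA replicate 1 or vehicle replicate 1, with -0.0047 in the fit without vehicle replicate 1.

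**Figure D3:**
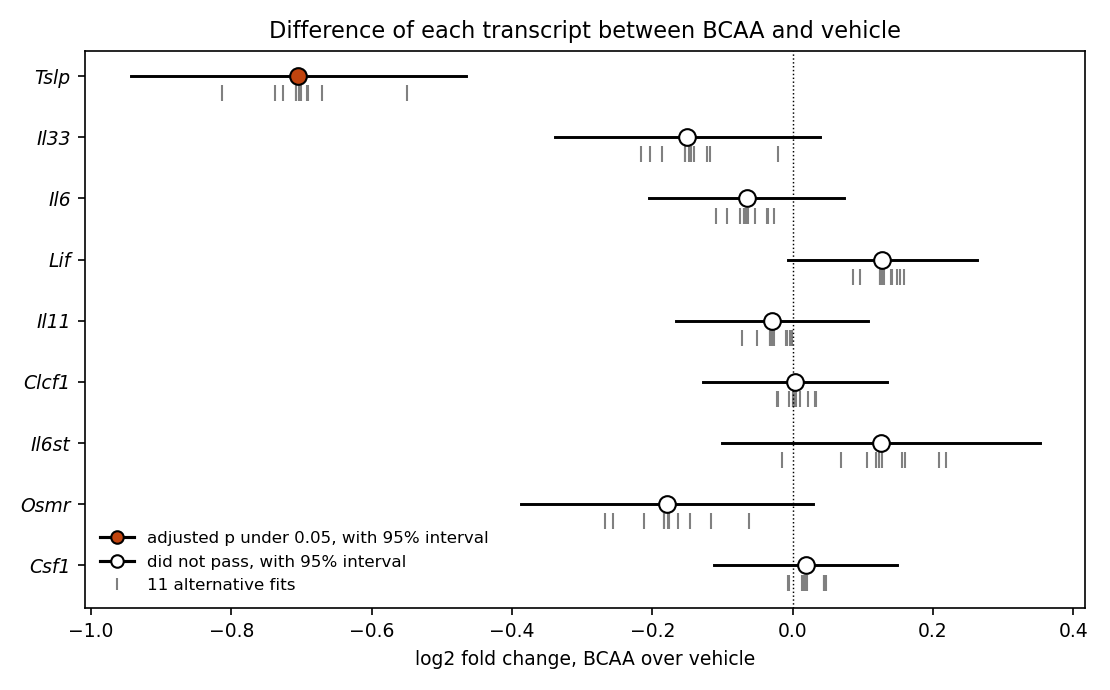
Log2 fold change of each gene, BCAA over vehicle (horizontal axis), with its 95% interval (line), filled where the adjusted p was under 0.05, and grey ticks for the 11 alternative fits. Tslp is the filled point at -0.70 with ticks from -0.81 to -0.55, and the intervals of the other 8 genes cross 0.

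The rest of the pathway was described with 9 gene lists of 98 symbols, of which 96 were found and 83 tested. None of the 83 was called (edgeR, adjusted over all genes), and DESeq2 called none either. DESeq2 gave no adjusted p for some of them, among them Osm, Cntf, Il6r, Il27ra, Il15, Il18 and Gab1. At an unadjusted p under 0.05, 7 were higher and 3 lower with BCAA, 12.0% of the 83, close to the 11.8% of all genes tested. The groups did not overlap for 14 genes that were higher and 3 that were lower, 20.5% of the 83, against 18.1% of all genes. The median log2 fold change was 0.03. Without vehicle replicate 1, 7 of the 83 (8.43%) were called, with 4.07% of all genes called in that fit. They were Il1rn, Tnfrsf1b, Hif1a, Fgl2 and Elavl1, which were higher, and Icam1 and Rhbdf1, which were lower. Without any one of the other 5 libraries none was called. For Csf2, Csf3, Il1a, Il1b and Tlr2, named below, no value without vehicle replicate 1 is given. Leaving out vehicle replicate 1 also moved the log2 fold change of other genes named below by over 1.5 times. It was 0.12 for Il1rl1, -0.12 for Crlf2, 0.10 for Kitlg, 0.13 for Tlr3, 0.12 for Gab1, -0.21 for Casp1, 0.06 for Furin and -0.07 for Socs3, none of them called, and -0.26 for Rhbdf1 (edgeR adjusted p = 0.032).

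Partner ligands and receptors of the set came next. Of 5 other interleukin 6 family ligands tested none passed (median 0.03). Osm, oncostatin M, was at 4.49 ± 1.54 and 3.53 ± 0.342 CPM in BCAA and vehicle, and Cntf, ciliary neurotrophic factor, at 4.90 ± 0.646 and 4.50 ± 0.265 CPM in BCAA and vehicle (SD, n = 3 each). Their log2 fold changes were 0.34 (SE 0.25) and 0.12 (SE 0.19). Of 5 ligand-binding chains tested none passed (median 0.07). Il11ra1, the receptor chain of IL-11, was at 22.7 ± 2.56 CPM in BCAA libraries and 26.6 ± 3.45 CPM in vehicle libraries, a log2 fold change of -0.23 (SE 0.12, edgeR adjusted p = 0.49). Il6r, the receptor chain of IL-6, had a log2 fold change of 0.30 (SE 0.19) from 60 to 99 counts per library, and Il27ra, a chain for IL-27, one of -0.33 (SE 0.31).

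Receptors for TSLP, IL-33 and CSF1 were also measured, in a list that also held Il2rg, and none of 5 passed (median -0.00666). Il7r, another symbol of that list, was not analysed here. Crlf2, the TSLP-binding chain, was at 41.1 ± 2.20 CPM in BCAA libraries and 41.9 ± 4.995 CPM in vehicle libraries, a log2 fold change of -0.03 (SE 0.10, 95% interval -0.24 to 0.18). Il1rl1, the IL-33 receptor ST2, was at 125 ± 2.49 CPM in BCAA libraries and 119.7 ± 8.19 CPM in vehicle libraries, a log2 fold change of 0.06 (SE 0.07). Csf1r, which is also a macrophage gene, was at 17.9 ± 0.815 CPM in BCAA libraries and 16.8 ± 0.940 CPM in vehicle libraries, a log2 fold change of 0.09 (SE 0.11).

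Other growth factors of blood cells gave none of 7 (median -0.00994). Il15, a growth factor of natural killer cells, had a log2 fold change of -0.27 (SE 0.19), Il18, a cytokine of the IL-1 family, one of 0.28 (SE 0.29), and Kitlg, stem cell factor, one of 0.05 (SE 0.12). Csf2 and Csf3, the granulocyte-macrophage and granulocyte colony-stimulating factors, are named after their values were seen. Csf2 was at 483 ± 17.8 CPM in BCAA libraries and 492 ± 68.2 CPM in vehicle libraries, and Csf3 at 802 ± 67.9 and 808 ± 87.8 CPM in BCAA and vehicle (SD, n = 3 each). Vehicle replicate 1 was the highest library for both, at 569 CPM for Csf2 and 908 CPM for Csf3. In vehicle replicates 2 and 3 Csf2 was at 440 and 467 CPM and Csf3 at 771 and 745 CPM. Thpo, Tnfsf11 and Il5 had no count in any library.

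The list of inducers held interleukin 1 and tumour necrosis factor ligands and receptors, and also Il1rn, Il17ra, Tlr2, Tlr3, Tlr4 and Myd88. It gave none of 11 (median 0.09). Tnfrsf1b, a receptor for tumour necrosis factor, was at 104 ± 5.30 CPM in BCAA libraries and 88.2 ± 1.32 CPM in vehicle libraries, a log2 fold change of 0.24 (SE 0.07, edgeR adjusted p = 0.16). Il1rn, the secreted antagonist of the interleukin 1 receptor, was at 209 ± 7.18 CPM in BCAA libraries and 177 ± 13.7 CPM in vehicle libraries, a log2 fold change of 0.24 (SE 0.07, edgeR adjusted p = 0.18). For both, every BCAA library lay above every vehicle library, as it did by a narrow margin for Tlr3, the sensor of double-stranded RNA (log2 fold change 0.20, SE 0.13). The same held for Tlr2, named after its values were seen (log2 fold change 0.10, SE 0.07). The groups thus did not overlap for 4 of 11, all higher with BCAA, against 18.1% of all genes. The inducers Il1a and Il1b, named after their values were seen, differed by -0.04 (SE 0.08) and -0.10 (SE 0.08) on the log2 scale, while Tnf had at most 6 counts in any library and was not tested. Il1a and Il1b were both highest in vehicle replicate 1, at 2456 and 3055 CPM. In vehicle replicates 2 and 3 Il1a was at 1946 and 1955 CPM and Il1b at 2604 and 2550 CPM.

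Signalling below gp130 gave none of 14 (median 0.03), with log2 fold changes from -0.07 to 0.23. Pias3, an inhibitor of STAT3, showed a log2 fold change of 0.17 (SE 0.10), the kinase gene Tyk2 one of 0.12 (SE 0.08) and the adaptor gene Gab1 one of 0.23 (SE 0.21). Feedback and target genes of STAT3 gave none of 18 (median 0.03). Socs3, the feedback inhibitor that STAT3 induces, had 90.1, 94.97 and 90.8 CPM with BCAA, against 76.1, 97.0 and 96.2 CPM with vehicle. Only vehicle replicate 1 lay apart, below the others, and the log2 fold change of 0.03 (SE 0.09) was -0.07 without it. Fgl2, a fibrinogen-like secreted protein, was at 12.9 ± 1.17 CPM in BCAA libraries and 8.40 ± 1.66 CPM in vehicle libraries, a log2 fold change of 0.63 (SE 0.16, edgeR adjusted p = 0.13, and 0.038 without the low-count filter). Hif1a, the oxygen-regulated transcription factor, was at 804 ± 31.2 CPM in BCAA libraries and 681 ± 36.8 CPM in vehicle libraries (log2 fold change 0.24, SE 0.06, edgeR adjusted p = 0.14). Icam1, a leukocyte adhesion protein, was at 659.6 ± 13.4 CPM in BCAA libraries and 762 ± 31.1 CPM in vehicle libraries (log2 fold change -0.21, SE 0.06, edgeR adjusted p = 0.18).

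The list of proteins that set the life of cytokine mRNAs, which also held Tnfaip3, gave none of 10 (median 0.04). Elavl1, which encodes the mRNA-stabilising protein HuR, was at 91.9 ± 4.83 CPM in BCAA libraries and 78.0 ± 6.66 CPM in vehicle libraries (log2 fold change 0.24, SE 0.08, edgeR adjusted p = 0.27). Rc3h1, which encodes the mRNA-destabilising protein roquin, had 64.9, 43.6 and 42.0 CPM with BCAA, against 38.2, 39.4 and 40.7 CPM with vehicle, with BCAA replicate 1 far above the others and a log2 fold change of 0.35 (SE 0.14). For Tnfaip3, the ubiquitin-editing inhibitor of NF-kB, the log2 fold change was -0.19 (SE 0.08). Proteases that release or cut cytokines and receptors gave none of 8 (median 0.07). The inflammasome protease gene Casp1 showed a log2 fold change of -0.36 (SE 0.17), the proprotein convertase gene Furin one of 0.14 (SE 0.07) and Rhbdf1, a partner of the shedding protease ADAM17, one of -0.16 (SE 0.09).

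**Figure D4:**
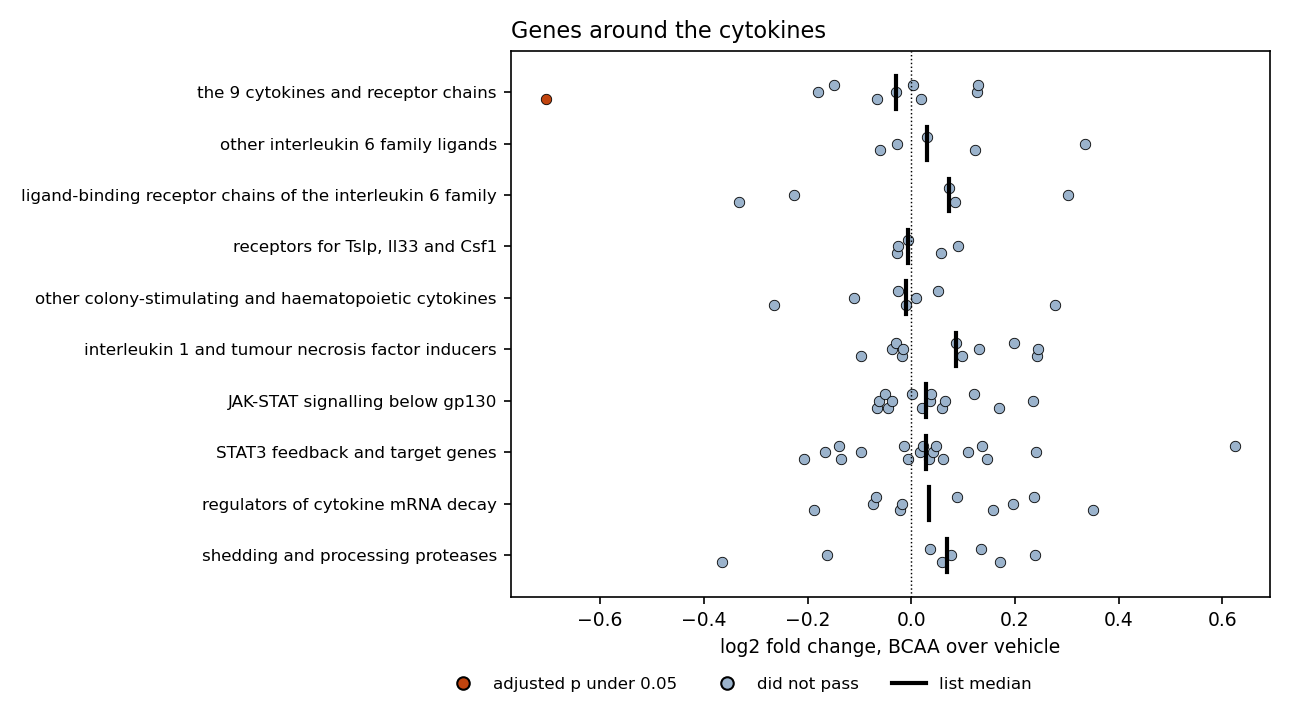
Log2 fold change, BCAA over vehicle (horizontal axis), of each tested gene of the 9 cytokines and receptor chains and of 9 surrounding gene lists (rows), with a black bar for the list median. The only filled orange point is Tslp at -0.70, and the medians of the surrounding lists lie between -0.00994 and 0.09.

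The genes whose profile over the 6 libraries was closest to that of Tslp were found by the root mean square difference of log2 CPM, each gene centred on its own mean, among 11833 genes with a mean of at least 1 CPM. They were Vps25, a subunit of an endosomal sorting complex (difference 0.09), Car9, a carbonic anhydrase (0.09), Zcchc10, a zinc finger protein (0.11), Clca4l (0.12) and Cdo1, the cysteine dioxygenase (0.13), where the median over all genes compared was 0.40. Vps25, Car9 and Clca4l rested on few reads, with means of 1.32, 1.46 and 1.68 CPM with BCAA and 2.07, 2.48 and 2.72 CPM with vehicle, and none of the 3 was called. Zcchc10 was at 3.21 CPM in BCAA libraries and 5.48 CPM in vehicle libraries and was not called either. Cdo1 was the called gene among the 5, at 16.5 ± 0.700 CPM in BCAA libraries and 26.3 ± 1.33 CPM in vehicle libraries (SD, n = 3 each), with a log2 fold change of -0.67 (SE 0.10, edgeR adjusted p = 0.014). Closeness of profiles over 6 libraries in 2 groups includes the difference between the groups, so it is a description.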

How the data were processed

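RNA sequencing of 6 libraries was deposited as a table of raw read counts per gene symbol, without normalization, with 1 column per library. The submitters' processing notes name Trimmomatic, FastQC, STAR, HTSeq and, as genome build, rn6. The sources used here give no versions, annotation or strand setting, so reads from overlapping and from antisense genes cannot be told apart. Per the labels' protocols, RNA was isolated with TRIzol and libraries were made with a NEBNext Ultra kit.

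From the deposited counts, edgeR 4.0.16 (R 4.3.3) gave TMM scaling, default filterByExpr (count of 10, total of 15) and a robust quasi-likelihood test with the group as the only term, adjusted over 12298 genes by Benjamini-Hochberg and called under 0.05. The SE is the log2 fold change divided by the square root of F. CPM uses TMM-scaled library sizes, and log2 CPM a prior count of 2. The fit was tested on simulated data. DESeq2 1.42.0, other scaling, no filter, a replicate block and each library left out were alternatives.

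The members and all gene lists were chosen with earlier results of these data known. The genes named are the members, the genes closest to Tslp, Socs3 and, of each list, called genes or else the 3 with the smallest p; others are marked, and 1 gene is not reported here. Il7r and Mcl1 were not analysed here. Promoter sequences are from RefSeq (GRCr8). Replicates of a group differed by more than sampling noise in all 6 pairs (chi-square per degree of freedom 2.65 to 16.9).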

Additional observations from a re-analysis of the deposited data

How the results depend on the processing

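The number of genes called was 28 (7 higher, 21 lower with BCAA). It was 127 with DESeq2 (55 higher, 72 lower), 124 without the low-count filter (57 higher, 67 lower), 29 without scaling factors (11 higher, 18 lower) and 6 with the replicate number as a block. With 1 library left out it ran from 7 to 500, the highest without vehicle replicate 1, and without any one of the other 5 libraries it was at most 11. The cause was not tested. Tslp was called with DESeq2, with DESeq2's size factors in edgeR, without scaling factors and without the filter. With the replicate block none of the 9 genes was called (0 calls), and Tslp had a log2 fold change of -0.69 and an adjusted p of 0.13. With 1 library left out, the 9 genes gave 0 or 1 call and the 83 surrounding genes 0 to 7. Without the filter 1 of these was called, Fgl2. Replicate numbers were not taken as pairs in the main fit. Deviations of equal numbers from the group means correlated at -0.07, 0.11 and -0.15 across genes, and only number 2 correlated best with its own number. Library totals, however, matched by number. In BCAA and vehicle they were 14482260 and 14484051 counts for number 1, 15654060 and 15739731 for number 2, and 12802663 and 12725344 for number 3. The labels do not say whether equal numbers share a batch, so pairing is not settled.

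The direction of Tslp, Il33, Il6, Lif, Il11 and Osmr held in all 11 alternatives, which reuse the same 6 libraries. The log2 fold change was as small as -0.00042 for Il11 without scaling factors and -0.02 for Il33 without vehicle replicate 1. An unchanged sign is therefore no evidence of a difference for these 2 genes. With 1 library left out, the log2 fold change ran from -0.022 to 0.034 for Clcf1, -0.015 to 0.22 for Il6st, -0.0064 to 0.045 for Csf1, -0.12 to 0.050 for Crlf2, -0.041 to 0.12 for Kitlg and -0.068 to 0.093 for Socs3, so these have no settled sign. For Crlf2 it was 0.00066 without scaling factors. With 3 libraries per group and a typical SE of 0.11 on the log2 scale, small differences were not detectable.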
